A study of Mus musculus with 6 samples.

Results

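Glioma-initiating cells (GICs) that had been cultured from a glioma of an old mouse were compared with GICs cultured from a glioma of a young mouse. The comparison takes 2 of the 6 RNA-seq libraries of the series, 1 library for each group, and 12809 of the 46952 rows of the GIC table, those with a highest value of at least 1 FPKM in its 3 libraries. FPKM is a fragment count divided by transcript length and library size, so it can be compared between genes. Both cultures came from C57BL/6 mice and from the GIC line called 7080X1 in the labels, which had been placed in the brain and harvested as a tumor once the host was ill. The old-host culture is called NT in its title, which the labels do not spell out. The table also holds a culture from an old host of the group named NMN-before-Tumor, and the series has tumors of the line ms7080 from young, old and NMN-before hosts. The sources used here give no ages, no NMN dose, no number of mice and no time in culture, so each group stands for 1 culture of 1 line.

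GICs are tumor cells that renew themselves in culture and can seed a new glioma when put back into a brain. They keep much of the programme of neural stem and progenitor cells, including the transcription factors Sox2 and Olig2. Glioma cells can move between a proneural state, with such factors high, and a mesenchymal state, with genes of matrix, wound repair and inflammation high. RNA was taken from cells grown outside the host.

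With 1 library per group no test between old and young hosts is possible. Every difference below is log2(FPKM + 1) of the old-host culture minus that of the young-host culture, and 2-fold (a log2 difference of 1) is a rule of size that compares 2 libraries. The value of the NMN-before culture is printed last where 3 values stand together. It is no replicate of either group, and its own difference from the young-host culture shares the young library. From the steps between low FPKM values, fragment depth was estimated, at 12.72 M in the young-host library and 9.72 M in the old-host library (M stands for mega). For a transcript of 2 kb, 5 FPKM then has a 95% exact Poisson interval of 4.14 to 5.99 in the young-host and 4.02 to 6.15 in the old-host library, which covers counting error only.

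The cultures carried the markers of their label. Sox2 was at 52.1 FPKM in the young-host culture and 65.1 in the old-host culture, Olig2 at 108 and 136, and Nes, the filament of neural stem cells, at 123 and 154. All 10 markers of neural stem cells and 8 of the 10 oligodendrocyte precursor markers with a row of their own passed 1 FPKM. Most markers of host immune, vascular and blood cells were under 1 FPKM. Of 13 microglia markers, 2 passed 1 FPKM and Siglech was listed at 0 in all 3 cultures. The list summed to 27.7 FPKM in the young-host, 22.7 in the old-host and 32.2 in the NMN-before culture. Most of each sum was Sall1 alone, at 16.8, 14.5 and 23.2 FPKM. No T or NK cell and no erythroid marker passed, with sums of 0.107 and 0.278 FPKM for T and NK cells in the young-host and old-host culture. Markers of monocytes and macrophages summed to 8.91 and 9.02 FPKM, with 3 of 12 past 1 FPKM, mural cell markers to 7.64 and 8.41, with 2 of 9, and B cell markers to 2.19 and 0.875, with 1 of 6. Pecam1 alone of 11 endothelial markers passed, with a list sum of 2.69 and 2.59 FPKM. Counts and sums take rows that name 1 gene, which 7 of 9 fibroblast markers had. Of these Mgp and Col1a1 passed, and the 7 summed to 7.18 FPKM in the young-host and 2.06 in the old-host culture. Col3a1 and Pdgfra, in rows shared with other genes, were left out. Their rows were at 7.73 and 13.2 FPKM in the young-host and 2.85 and 14.9 in the old-host culture.

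Most genes differed little in the pair. Over the 10540 measured rows that name 1 protein-coding gene, the median difference was 0.02, the middle 50% lay between -0.17 and 0.19, and 88.2% lay within 0.5 log2 units of 0. Of all 12809 rows, 157 were 2-fold higher in the old-host culture (1.23%) and 202 were 2-fold lower (1.58%). Protein-coding genes made up 144 of these 359 rows, 60 of them higher (0.569% of 10540) and 84 lower (0.797%). Another 87 rows were pseudogenes and 70 were small RNAs, and 67 and 63 of those were at 0 in 1 of the 2 libraries. Because 26 of the 77 small RNA values above 0 were equal to the value of another small RNA row, these rows are counted here and not described. Just past the 2-fold line lay Mical2, at 8.62 FPKM in the young-host and 3.803 in the old-host culture, and Plekhg5, Egr1 and Igf2bp2. Just short of it lay Chrnb1, at 8.19 and 3.595 FPKM, and Slc29a4, Rgs7 and Fam174b at differences of 0.99, 0.98 and 0.97. Because 1 was added, low values such as those of Chrnb1 can be more than 2-fold apart in FPKM and not pass. In such bulk RNA, fewer cells that express a gene and less of its RNA per cell cannot be told apart.

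Several of the 20 highest genes, taken among those that reached 5 FPKM in the young-host or old-host culture, were nearly silent in the young-host culture. Ctsc, cathepsin C, which activates serine proteases of immune granules (chr7:88278085-88310888, plus strand, coordinates of GRCm38 throughout), was at 0.1499 FPKM in the young-host, 5.36 in the old-host and 6.71 in the NMN-before culture. Lonrf3, a RING finger and LON domain protein (chrX:36328353-36362341, plus strand), was at 0.762, 5.899 and 6.19 FPKM, and Bmp7, a ligand of the BMP family (chr2:172868012-172940321, minus strand), at 1.14, 5.38 and 5.66. For these 3 genes the old-host and NMN-before cultures lay close together and the young-host culture stood apart. The bulk tumors of the series, which also expressed host-cell markers, did not show the gap. The young-host and old-host tumor were at 20.5 and 24.6 FPKM for Ctsc, 4.99 and 6.44 for Lonrf3 and 5.001 and 5.34 for Bmp7. How much of these tumor values came from host cells was not tested. Mid1, a microtubule-associated ubiquitin ligase (chrX:169685199-170005736, plus strand), was at 2.001, 6.78 and 9.51 FPKM, again with the young-host culture lowest.

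For other genes the young-host and NMN-before cultures lay close together and the old-host culture was above both. Cacna1a, the pore of P/Q-type calcium channels (chr8:84388440-84640246, plus strand), was at 3.72 FPKM in the young-host, 11.3 in the old-host and 3.804 in the NMN-before culture. Kcnk10, a 2-pore potassium channel (chr12:98429437-98578310, minus strand), was at 1.88, 7.47 and 2.18 FPKM. Klhl22, a substrate adaptor of a cullin ubiquitin ligase (chr16:17759618-17793382, plus strand), was at 4.39, 12.04 and 4.15. None of these 3 reached 5 FPKM in the other cultures. Tmem35a, a chaperone of nicotinic receptors (chrX:134295225-134305969, plus strand), has a single annotated transcript, and its 231 and 547 estimated fragments put the old to young ratio between 2.65 and 3.63 (95% exact interval, counting error only). Nell2, a secreted neural glycoprotein, was at 10.3, 26.1 and 45.3 FPKM, so that the NMN-before culture lay above the old-host one. Other members of the highest 20 were Cyct, 3830403N18Rik, Nmral1, Uba1y, Gm364, Immp2l, Rnf113a2, Akr1c13 and Slitrk2, at differences of 1.21 to 2.82. Cyct, Uba1y, Rnf113a2, Akr1c13 and 3830403N18Rik have close relatives elsewhere in the genome, so their values are uncertain.

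The largest of all differences in rows shared by several genes was that of the Mir17hg locus, the host transcript of an oncogenic microRNA cluster, whose row also names Mir17, Mir18, Mir19a, Mir20a, Mir19b-1 and Mir92-1. It was at 2.97 FPKM in the young-host, 37.9 in the old-host and 1.69 in the NMN-before culture. Which of the overlapping transcripts carried the fragments is not resolved by such a row, and it was chosen for mention after its values were seen.

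**Figure D1:**
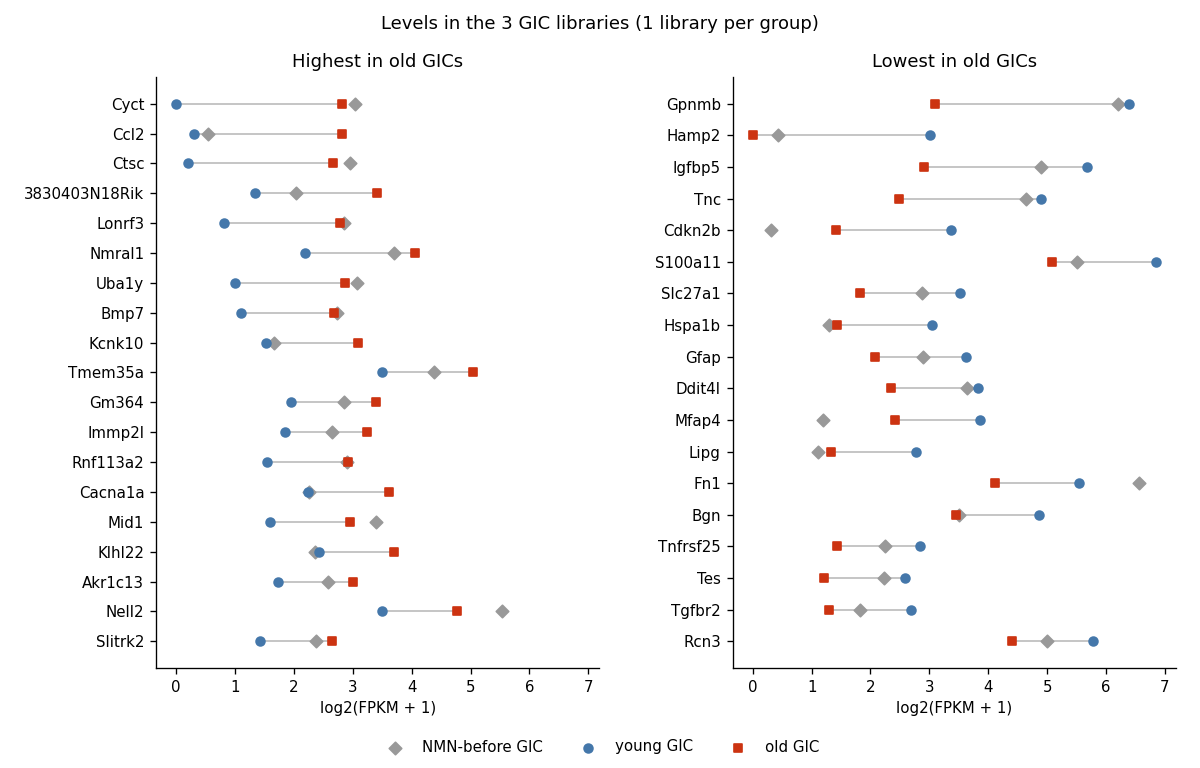
Levels of 19 of the 20 highest and 18 of the 20 lowest protein-coding genes of the old-host against the young-host culture, as log2(FPKM + 1) on the horizontal axis, with 1 point per library (circle, young GIC; square, old GIC; diamond, NMN-before GIC) and a line joining the young and old values. In the left panel Ctsc, Lonrf3 and Bmp7 have the old and NMN-before points close together, and in the right panel Gpnmb and Tnc have the young and NMN-before points close together.

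Among the 20 lowest genes of the old-host culture, Slc27a1, a fatty acid transport protein (chr8:71568882-71587302, plus strand), was at 10.5 FPKM in the young-host, 2.52 in the old-host and 6.37 in the NMN-before culture, and Rcn3, a calcium-binding protein of the secretory pathway (chr7:45082913-45092221, minus strand), at 53.9, 20.2 and 31.03. In both the old-host value was the lowest and the NMN-before value lay between. Ddit4l, an inhibitor of mTOR signalling (chr3:137621612-137628333, plus strand), was at 13.2, 4.12 and 11.5. For Ddit4l the young-host and NMN-before cultures lay close together. Hamp2, a hepcidin gene, was at 7.11 FPKM in the young-host culture, listed at 0 in the old-host culture and at 0.35005 in the NMN-before culture. Mfap4, a microfibril-associated protein, Lipg, endothelial lipase, Tes, testin, and Tnfrsf25, a death receptor, were at differences of -1.46, -1.45, -1.39 and -1.40. Hspa1b, an inducible Hsp70 gene with a near-identical copy beside it, was at -1.60 and its value is uncertain for that reason.

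Cell-cycle genes of mitosis were higher in the old-host culture throughout. All 24 measured members of a list of 25 mitosis genes were higher, with a median of 0.42 and a range of 0.19 to 0.93. None passed 2-fold in FPKM + 1, though Ccnb2 did in FPKM, at 7.67 in the young-host and 15.5 in the old-host culture. Of all measured protein-coding rows 52.6% were higher. Cdc20, the activator of the anaphase-promoting complex, was at 74.3 FPKM in the young-host, 122 in the old-host and 101 in the NMN-before culture. Plk1, the polo-like mitotic kinase, was at 56.6, 86.7 and 77.5 FPKM, Ccnb1, the cyclin of Cdk1, at 67.7, 103 and 83.5, and Kif20a, a kinesin of cytokinesis, at 38.4, 56.5 and 47.6. The young-host culture was the lowest of the 3 for each of these 4 genes. The spread of the list was small, with the proliferation antigen Mki67 near its low end at 54.3 and 65.3 FPKM in the young-host and old-host culture.

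Directions were less even among genes of DNA replication. Of 21 measured members 15 were higher, with a median of 0.11. Rrm2, the subunit of ribonucleotide reductase made in S phase, was at 189.6 FPKM in the young-host, 346 in the old-host and 205 in the NMN-before culture. Ccne2, a cyclin of S-phase entry, went the other way at 28.7, 19.96 and 9.19. Among CDK inhibitors and cyclins D, 6 of 12 measured members were higher and the median was 0.02. Cdkn2c, an inhibitor of Cdk4 and Cdk6, was at 8.45, 13.8 and 21.1 FPKM. Cdkn2b, its relative, was at 146 and 20 estimated fragments in the young-host and old-host culture, a young to old ratio between 3.48 and 9.402 (95% exact interval, counting error only). Its neighbour Cdkn2a, which encodes the p16 and p19 proteins, was at 311 and 243 FPKM, and Trp53 at 84.1 and 84.4.

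The promoters of the mitosis genes share sequence elements. This is a property of the listed genes and says nothing on the difference between the cultures. RefSeq promoter windows of GRCm38.p6, from 250 bases before to 50 bases after the start, matched 8380 of 10530 measured protein-coding genes. The cell cycle genes homology region, searched as TTTGAA or TTCGAA on both strands, was in 16 of 20 mitosis windows (80.0%) and in 13.1% of all 8380. CCAAT, the box read by NF-Y, was in 18 of 20 (90.0%) against 39.4% of all. A match is a description of the letters and not of a site in use. The windows of the 3 members with the element and the largest differences are shown 5′ to 3′ with the element in capitals.
Ccnb2 (chr9:70421505-70421804, minus strand): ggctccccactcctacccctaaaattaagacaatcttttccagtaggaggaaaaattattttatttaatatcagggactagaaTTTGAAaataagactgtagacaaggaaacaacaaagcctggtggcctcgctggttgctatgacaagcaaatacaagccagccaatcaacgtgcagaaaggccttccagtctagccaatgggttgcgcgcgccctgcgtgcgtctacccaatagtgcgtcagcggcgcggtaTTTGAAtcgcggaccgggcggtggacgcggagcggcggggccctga
Cdc20 (chr4:118437294-118437593, minus strand): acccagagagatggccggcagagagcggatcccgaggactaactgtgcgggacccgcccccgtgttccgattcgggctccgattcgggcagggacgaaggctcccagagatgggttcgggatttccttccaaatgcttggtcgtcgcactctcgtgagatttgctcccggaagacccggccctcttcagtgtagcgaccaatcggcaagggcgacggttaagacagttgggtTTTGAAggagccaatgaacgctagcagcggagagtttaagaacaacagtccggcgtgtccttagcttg
Cdk1 (chr10:69352863-69353162, minus strand): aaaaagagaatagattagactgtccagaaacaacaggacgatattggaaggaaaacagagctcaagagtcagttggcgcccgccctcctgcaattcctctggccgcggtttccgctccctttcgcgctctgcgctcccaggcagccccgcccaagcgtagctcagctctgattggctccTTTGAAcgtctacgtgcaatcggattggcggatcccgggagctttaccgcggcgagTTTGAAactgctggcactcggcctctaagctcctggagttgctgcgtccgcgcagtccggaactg
Cdk1 and Ccnb2 hold 2 copies each and Cdc20 holds 1.

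Genes of lipid synthesis were mostly higher as well. Of 17 measured genes of cholesterol synthesis 16 were higher in the old-host culture, with a median of 0.41, and Hsd17b7 alone was lower. Acat2, which makes the first intermediate of the pathway, was at 46.2 FPKM in the young-host, 75.6 in the old-host and 59.6 in the NMN-before culture. Fdft1, squalene synthase, was at 19.2, 30.8 and 38.2 FPKM, and Mvk, mevalonate kinase, at 20.04, 31.6 and 42.7. The young-host culture was the lowest for all of these, and for the last 2 the NMN-before culture was the highest. Nsdhl, a late enzyme on chromosome X, had the largest difference, at 24.03 and 45.8 FPKM in the young-host and old-host culture. The regulators of the pathway differed less, with a median of 0.18 over 12 measured genes of sterol control and uptake. Apoe, the apolipoprotein, was at 49.99 and 39.4 FPKM in the young-host and old-host culture.

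Of 12 measured genes of fatty acid synthesis and desaturation all were higher, with a median of 0.38. Fads2, a desaturase of polyunsaturated fatty acids, was at 34.1 FPKM in the young-host, 65.6 in the old-host and 70.95 in the NMN-before culture. Acss2, which makes acetyl-CoA from acetate, was at 2.76, 5.36 and 8.95 FPKM, and Scd1, the stearoyl-CoA desaturase, at 29.3, 42.97 and 61.1. In these 3 the values stood in the order young, old, NMN-before. In promoter windows, CCAAT was in 11 of 13 genes of cholesterol synthesis (84.6%) against 39.4% of all. The sterol regulatory element searched as TCACNCCAC on both strands was in 1 of the 13 and in 1.09% of all windows. The 1 gene was Hmgcs1, an early synthase of the pathway, whose window is shown with the element in capitals.
Hmgcs1 (chr13:119690101-119690400, plus strand): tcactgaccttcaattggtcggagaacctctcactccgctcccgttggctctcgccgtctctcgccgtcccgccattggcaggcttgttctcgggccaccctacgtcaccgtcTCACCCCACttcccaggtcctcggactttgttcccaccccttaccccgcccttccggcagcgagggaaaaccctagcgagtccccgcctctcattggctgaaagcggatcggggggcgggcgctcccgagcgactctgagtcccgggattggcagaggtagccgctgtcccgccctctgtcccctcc

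Genes of carbon metabolism were also higher. Of 20 glycolysis genes 18 were higher, with a median of 0.25, and of 20 genes of the tricarboxylic acid cycle likewise 18, also with a median of 0.25. Eno1, enolase, was at 397 FPKM in the young-host, 584 in the old-host and 482 in the NMN-before culture, Tpi1, triose phosphate isomerase, at 126, 175 and 153, and Pgk1, phosphoglycerate kinase, at 190.3, 270.5 and 155. Gapdh, often used as a reference transcript, was at 675, 991 and 907 FPKM, and Actb, another, at 929, 1249 and 1680.1. Both reference transcripts were lowest in the young-host culture. Idh1 and Idh2, the NADP-dependent isocitrate dehydrogenases, were at 28.7 and 74.7 FPKM in the young-host and 51.6 and 116 in the old-host culture. Cs, citrate synthase, was at 108 and 153, and Pdha1, a subunit of pyruvate dehydrogenase, at 47.95 and 67.7. Of 26 respiratory chain genes 22 were higher, but the median was 0.10. Hypoxia genes showed no common direction, with 9 of 18 higher, a median of 0.00 and Ankrd37, a target of HIF1, at 3.49 and 0.833 FPKM in the young-host and old-host culture. Genes of cytosolic ribosomal proteins were level, with 13 of 26 higher and a median of -0.01. The hypoxia response core ACGTG, searched on both strands, was in 9 of 19 glycolysis windows (47.4%), 10 of 15 hypoxia windows (66.7%) and 26.4% of all promoter windows.

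Factors of the stem and progenitor state were mostly higher. Of 22 measured glioma stem cell factors 18 were higher, with a median of 0.29, and of 10 neural stem cell markers 9, with a median of 0.43. These lists overlap, and the stem cell marker Vim also stands in the mesenchymal list described below. Fabp7, the brain lipid-binding protein of radial glia, was at 88.2 FPKM in the young-host, 135 in the old-host and 320.2 in the NMN-before culture, and Sox11, a neural progenitor factor, at 27.5, 41.6 and 32.4. Vim, the intermediate filament vimentin, was at 913, 1313 and 1267. Hopx, a homeodomain protein of outer radial glia in human cortex, went the other way at 12.01, 7.93 and 12.6. Notch genes had a median of 0.27 with 11 of 16 higher. The ligand gene Dll1 was at 7.29, 13.1 and 16.1 FPKM, Lfng, which modifies the receptor, at 5.004, 9.48 and 22.04, and the target Hes5 at 0.838, 1.92 and 3.77. All 3 stood in the order young, old, NMN-before, while the receptor gene Notch3 was at 3.91, 2.55 and 4.18.

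**Figure D2:**
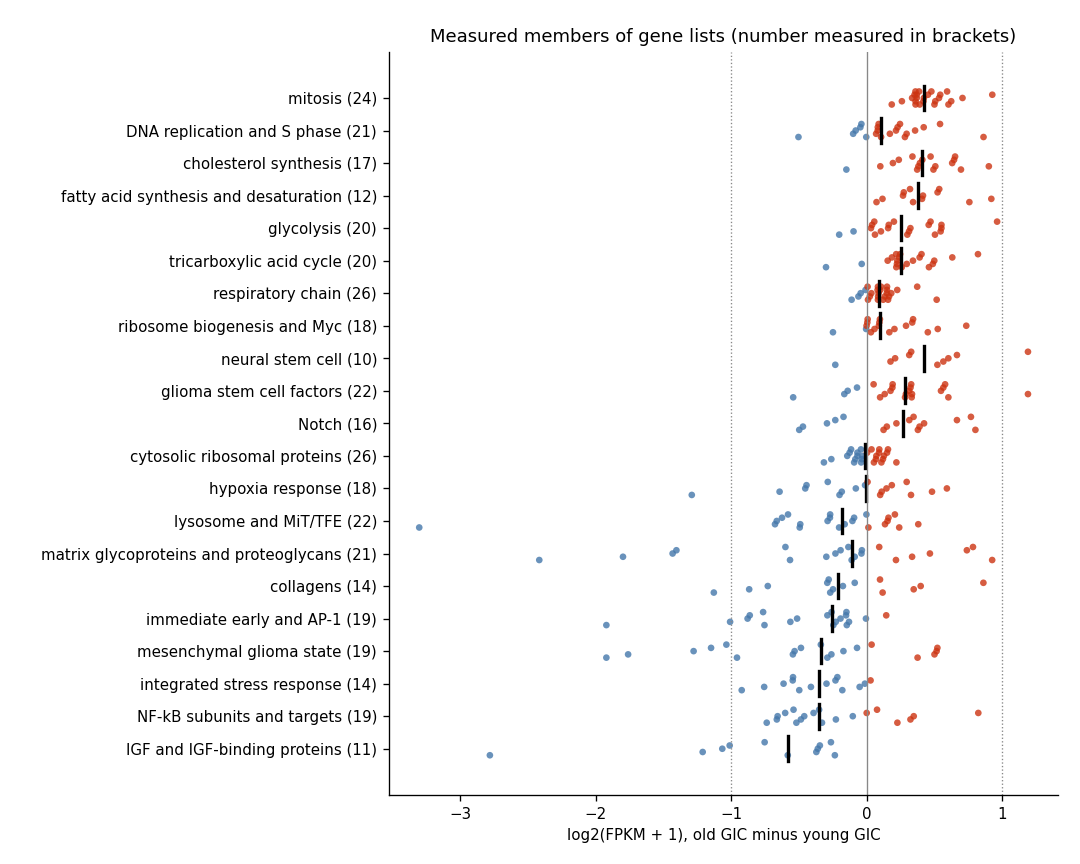
Differences of the measured members of 21 gene lists, old-host minus young-host culture, as log2(FPKM + 1) on the horizontal axis, with 1 point per gene (red above 0, blue below), a black bar at the list's median and dotted lines at 2-fold. The 24 mitosis genes lie between 0.19 and 0.93, and the 11 genes of the IGF list all lie below 0.

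Most genes of the mesenchymal glioma state were lower in the old-host culture, but not all. Of 19 measured members 14 were lower, 5 of them 2-fold, with a median of -0.34. Of all measured protein-coding rows 0.797% were 2-fold lower and the median was 0.02. Fosl1, an AP-1 transcription factor of that state (chr19:5447547-5455946, plus strand), was at 4.79 FPKM in the young-host, 0.528 in the old-host and 0.781 in the NMN-before culture. Anxa1, annexin A1 (chr19:20373428-20390944, minus strand), was at 13.99, 6.31 and 3.32 FPKM. The genes S100a6, S100a10 and S100a11, all on chromosome 3, encode S100 proteins, most of which bind calcium. S100a6 was at 244, 99.9 and 33.7 FPKM, S100a10 at 210.003, 108 and 131, and S100a11 at 114, 32.9 and 44.4. For these 5 genes the young-host culture was the highest of the 3. The other 5 members were higher, up to 0.52 for Vim, and Emp1, an epithelial membrane protein, was at 14.4 FPKM in the young-host and 20.8 in the old-host culture. Summed over the list, FPKM was 3155 in the young-host and 3699 in the old-host culture. Cd44, a receptor widely used as a mesenchymal marker, was at 63.8 FPKM in the young-host and 60.7 in the old-host culture.

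Immediate early and AP-1 genes were lower in 18 of 19 measured members, with a median of -0.26. Fosl1 and Egr1, 2 of the 19, were 2-fold lower, as were 0.797% of all measured protein-coding rows. Egr1, an early growth response factor, was at 18.4 FPKM in the young-host, 8.63 in the old-host and 15.2 in the NMN-before culture, Fos at 11.1, 6.19 and 4.88, and Klf4 at 3.41, 1.43 and 2.16. The AP-1 element, searched as TGANTCA on both strands, was in 6 of 15 promoter windows of the mesenchymal list (40.0%) and in 4.42% of all 8380. In the matrix list it was in 0 of 15, which says only that these letters were not in those windows. Emp1, a higher member, also held 2 copies. The member with the element and the largest difference was S100a11, whose window holds 2 copies, shown in capitals.
S100a11 (chr3:93520246-93520545, plus strand): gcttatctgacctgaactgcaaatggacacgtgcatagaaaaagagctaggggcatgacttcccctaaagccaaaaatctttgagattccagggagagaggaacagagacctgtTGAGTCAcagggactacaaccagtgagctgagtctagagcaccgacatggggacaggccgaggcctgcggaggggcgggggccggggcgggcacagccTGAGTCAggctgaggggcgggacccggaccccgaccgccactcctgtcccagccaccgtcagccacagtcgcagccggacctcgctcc

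Matrix genes split. Of 21 measured matrix glycoproteins and proteoglycans 14 were lower, with a median of -0.11. Among them 4 were 2-fold lower, as were 0.797% of all measured protein-coding rows. Bgn, biglycan (chrX:73483602-73495933, plus strand), was at 28.1 FPKM in the young-host, 9.99 in the old-host and 10.4 in the NMN-before culture, and Mgp, matrix Gla protein (chr6:136872435-136875823, minus strand), at 3.9998, 0.437 and 1.89. Fn1, fibronectin, was at 45.8, 16.3 and 93.5, with the NMN-before culture above both others. Acan, the proteoglycan aggrecan, had the largest positive difference of the list, at 2.09, 4.89 and 0.917, and Spock2 followed at 6.56, 12.04 and 13.8. Collagens were lower in 9 of 14, with Col6a1 and Col6a2, neighbours on chromosome 10, at 15.4 and 4.89 FPKM in the young-host and 7.97 and 1.69 in the old-host culture. The row shared by Col3a1 was at 7.73 and 2.85. Fibroblast marker sums over rows naming 1 gene were also lower in the old-host culture, at 2.06 against 7.18 FPKM. Both sums were made up mostly of Mgp and Col1a1, which are matrix genes themselves, and leave out Col3a1 and Pdgfra. The part of such cells in these values was not tested.

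The insulin-like growth factor genes were lower without exception. All 11 measured members of the list were below 0, from -2.78 to -0.23, with a median of -0.58. Of these 4 were past 2-fold, where 0.797% of all measured protein-coding rows were 2-fold lower. Igfbp2, a binding protein abundant in glioma (chr1:72824503-72852474, plus strand), was at 241 FPKM in the young-host, 115 in the old-host and 487 in the NMN-before culture. Igfbp4 was at 198, 117 and 153 FPKM, and Igfbp3 at 133, 88.8 and 113. The RNA-binding proteins Igf2bp2 and Igf2bp3, which bind Igf2 transcripts, were at 5.104 and 5.64 FPKM in the young-host and 2.03 and 1.87 in the old-host culture. The old-host value was the lowest of the 3 for each of these 5 genes. In the TGF-beta and BMP family the directions were mixed, with 8 of 19 higher. The receptor gene Tgfbr2 (chr9:116084293-116175360, minus strand) was at 5.45, 1.47 and 2.54 FPKM, while the ligand gene Tgfb3 was at 5.93, 11.8 and 11.1. Senescence-associated genes were lower in 9 of 12, 3 of them 2-fold, with a median of -0.51. However, 1 member was 2-fold higher, at 2.51, as were 0.569% of all measured protein-coding rows. Members of this list, Igfbp5 and Igfbp3, also stand in the IGF list.

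Stress genes were lower in 1 branch. Of 14 measured genes of the integrated stress response 13 were lower, with a median of -0.35. Trib3, a pseudokinase induced by Atf4 and Ddit3, was at 13.4 FPKM in the young-host, 6.58 in the old-host and 7.58 in the NMN-before culture, and Atf5 at 54.8, 35.5 and 40.4. Chac1, which degrades glutathione, was at 12.8, 7.19 and 3.75 FPKM, with 241 and 103 estimated fragments in the young-host and old-host culture and an old to young ratio between 0.4397 and 0.707. Ddit3 itself was at 30.5, 20.6 and 48.4, lowest in the old-host culture. Genes of the unfolded protein response did not share this direction, as 7 of 12 were higher and the median was 0.09. Among antioxidant genes 10 of 19 were higher, but the metallothioneins Mt1 and Mt2, which bind zinc and copper and lie side by side on chromosome 8, were at 786 and 584 FPKM in the young-host and 415 and 305 in the old-host culture. Hmox1, heme oxygenase, was at 138 and 87.8.

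Lysosome genes were lower in 15 of 22 measured members, with a median of -0.18. Lamp1, a membrane glycoprotein of lysosomes, was at 206 FPKM in the young-host, 133 in the old-host and 184 in the NMN-before culture, Sqstm1, the autophagy receptor p62, at 323, 202 and 204, and Grn, progranulin, at 57.3, 37.97 and 61.3. The old-host value was the lowest for each. Gpnmb, the list's lowest member, was far from the rest at -3.30, and the next was Sqstm1 at -0.68. The E-box CACGTG, the core of the element read by MiT/TFE factors, was in 4 of 18 windows of the list (22.2%) and in 10.5% of all, and CATGTG in 3 of 18 (16.7%) and 7.51%. The window of Lamp1 holds 4 copies of the former, in capitals.
Lamp1 (chr8:13158911-13159210, plus strand): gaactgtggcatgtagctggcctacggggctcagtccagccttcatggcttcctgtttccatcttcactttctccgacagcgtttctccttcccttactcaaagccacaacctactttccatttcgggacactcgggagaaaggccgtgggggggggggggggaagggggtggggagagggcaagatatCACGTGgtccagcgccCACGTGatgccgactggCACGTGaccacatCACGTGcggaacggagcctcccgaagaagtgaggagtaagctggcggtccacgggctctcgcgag

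The lists of inflammatory genes did not share a direction, and genes of NF-kB were mostly lower. NF-kB subunits and targets were lower in 13 of 19, with a median of -0.35, among them Relb at 13.8 FPKM in the young-host, 8.77 in the old-host and 7.39 in the NMN-before culture and Icam1, an adhesion molecule, at 11.2, 6.72 and 0.852. Interferon-stimulated genes were higher in 9 of 20, with a median of -0.11. Gbp2, an interferon-induced GTPase, was at 4.25, 8.91 and 1.08 FPKM, and Isg15, a ubiquitin-like modifier, at 4.89, 3.04 and 0.98002. For Isg15 the 37 and 18 estimated fragments allow an old to young ratio from 0.341 to 1.15, so a difference was not detectable at this depth. In the MHC class I pathway 13 of 20 genes were higher, with a median of 0.14, while the classical heavy chain gene H2-D1 was at 265, 199.9 and 56.2 FPKM. The chemokine gene Ccl5 was at 6.15, 11.2 and 1.27 and the cytokine gene Il33 at 4.57, 7.198 and 1.11. For both, as for Gbp2, the old-host culture was the highest of the 3 and the NMN-before culture the lowest.

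Differences also lay unevenly along the genome. On chromosome X 289 of 364 protein-coding genes were higher in the old-host culture (79.4%), with a median of 0.25, and 12 genes were 2-fold higher and 5 were 2-fold lower, where 0.569% and 0.797% of all protein-coding rows were. On chromosome 10 74.7% of 550 genes were higher, with a median of 0.21, on chromosome 12 72.7% of 392, with 0.17, and on chromosome 15 71.3% of 415, with 0.11. Chromosome 8 lay below 0, with 30.4% of 529 genes higher and a median of -0.13. The 5 measured genes of chromosome Y were all higher, with a median of 0.38, among them Uba1y, whose value is uncertain as said above. The row shared by Xist, the RNA that silences an X chromosome, was under 1 FPKM in all 3 cultures and so not measured by the rule used here. It was at 0.0894 FPKM in the young-host and 0.512 in the old-host culture. The other autosomes had between 41.5% and 67.3% of their genes higher. Of the 20 highest genes 6 lie on chromosome X, among them Tmem35a, Lonrf3, Mid1 and Slitrk2, and 3 on chromosome 12. Of all 10540 measured protein-coding genes, without the 5 FPKM limit, 364 lie on chromosome X and 392 on chromosome 12. When the median of its chromosome was taken from each difference, an alternative chosen after seeing the data, 44 protein-coding genes were 2-fold higher and 88 lower. The mitosis genes then still were higher in 24 of 24, the cholesterol genes in 15 of 17 and the IGF genes in 0 of 11.

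**Figure D3:**
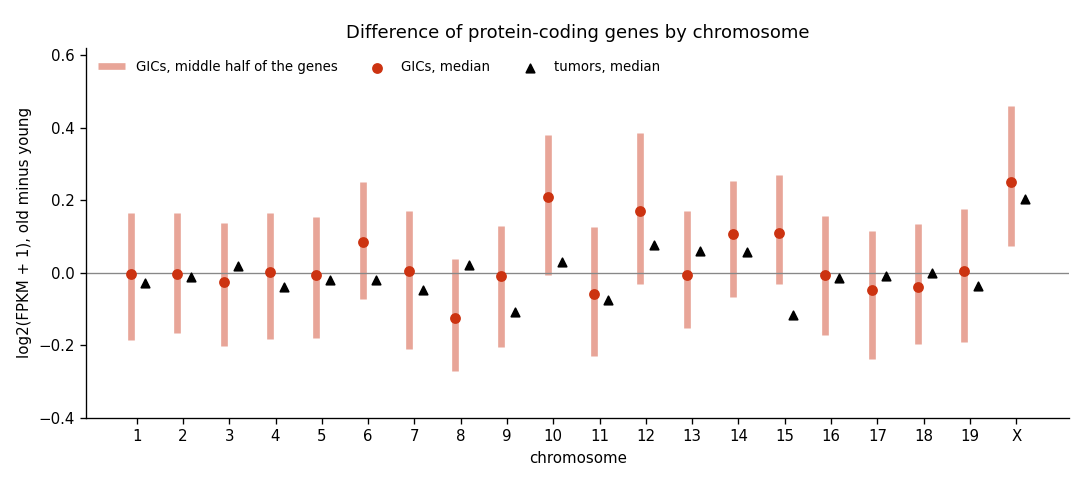
Median difference of measured protein-coding genes by chromosome, old minus young, as log2(FPKM + 1) on the vertical axis, for the GIC pair (circles, with bars from the lower to the upper quartile) and the tumor pair (triangles). Chromosome X lies above 0 in both pairs, with medians of 0.25 and 0.20, and chromosome 15 lies at 0.11 in GICs and -0.12 in tumors.

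Running medians over 25 neighbouring genes with at least 5 FPKM were taken in 8063 overlapping windows. All 39 windows above 0.4 lay on chromosomes 12 and X, and 30 of the 38 below -0.2 lay on chromosome 8. Of all 8063 windows, 287 lay on chromosome 12, 253 on X and 438 on 8. The highest window of chromosome 12 ran from Nampt to Coch (32820335 to 51605773 of GRCm38), with a median of 0.46 and 24 of 25 genes higher. Among its genes, named after their values were seen, Bzw2, a translation regulator, was at 119.5 FPKM in the young-host and 186 in the old-host culture, Arl4a, a small GTPase, at 39.02 and 85.3, and Zfp277, a zinc finger protein, at 11.7 and 22.2. Nampt, the enzyme that makes NMN from nicotinamide, is the first gene of this window, and its difference of 0.51 lay near the window's median. On chromosome X the highest window ran from Rap2c to Nsdhl (51003912 to 72958514), with a median of 0.48 and 24 of 25 genes higher. It held Hprt, a purine salvage enzyme, at 70.7 and 102 FPKM, Cetn2, a centrosome protein, at 23.8 and 47.4, and the sterol enzyme gene Nsdhl named above. On chromosome 10 all 427 windows were above 0. The lowest window of all ran from N4bp1 to Cpne2 on chromosome 8 (86808160 to 94570531), with a median of -0.25 and 7 of 25 genes higher, and it contained Mt1 and Mt2. Windows were picked for their extreme values, so these are descriptions, and no cause of the runs was tested.

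**Figure D4:**
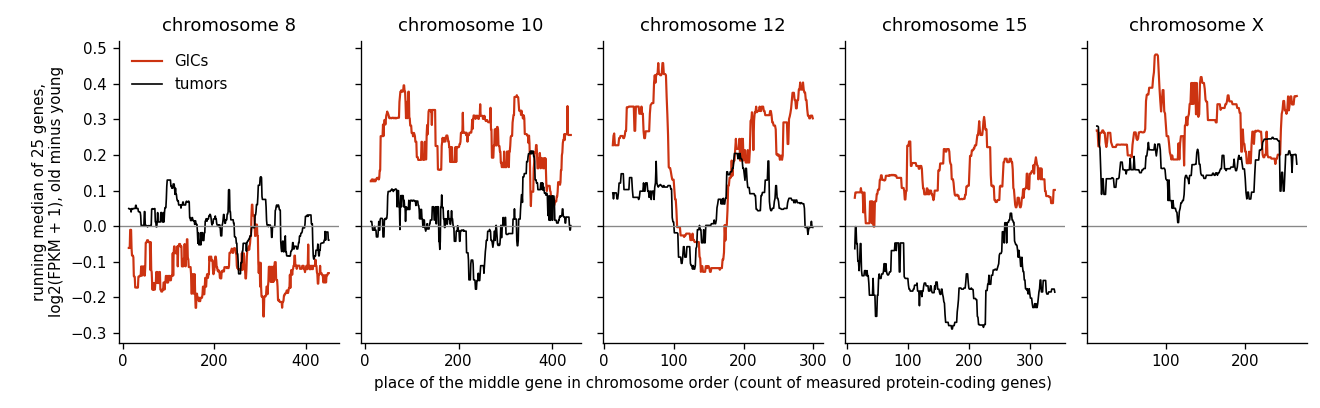
Running medians of the old minus young difference over 25 neighbouring protein-coding genes on 5 chromosomes, against the place of the middle gene in chromosome order, for the GIC pair (red) and the tumor pair (black). On chromosome X all 253 windows are above 0 in both pairs, and on chromosome 15 the GIC line lies above 0 in 327 of 329 windows and the tumor line in 15.

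The tumors of old and young hosts, which share no library with the cultures, were set beside them. The tumors expressed host-cell markers, with microglia markers summing to 445 FPKM in the young-host and 646 in the old-host tumor, monocyte and macrophage markers to 218 and 409, and B cell markers to 10.2 and 113. Over rows naming 1 gene, fibroblast markers summed to 51.02 FPKM in the young-host and 26.8 in the old-host tumor, and choroid plexus and ependyma markers to 30.2 and 158. The fibroblast sums leave out the shared rows of Pdgfra, at 72.6 and 70.2 FPKM, and of Col3a1, given below. In the tumor pair 229 of 14335 measured rows were 2-fold higher (1.60%) and 144 lower (1.0%). Of the 57 protein-coding genes that were 2-fold higher in the old-host culture and measured in tumors, 37 were higher in the old-host tumor and 20 lower. Of the 76 that were 2-fold lower, 41 were lower in the old-host tumor and 35 higher. This balance turned with a pseudocount of 0.1 (116 lower, 119 higher), in TPM (92 and 103) and with median-of-ratios scaling (38 and 39). Over all 10355 protein-coding rows measured in both, 44.3% were higher in the old-host tumor, and the differences of the pairs had Pearson's r = 0.02 and Spearman's rho = -0.03 across genes, which are no independent replicates. Of the 57, 2 were 2-fold higher in the tumor pair, and of the 76, 2 were 2-fold lower, where 19 and 26 of all 10355 were. They were Pid1 and Gm364, and S100a6 and Igf2bp3, named after their values were seen. Among rows shared by several genes, that of Col3a1 was also 2-fold lower in both pairs, at 8.95 FPKM in the young-host and 0.761 in the old-host tumor. S100a6 was at 689 FPKM in the young-host and 298 in the old-host tumor, Igf2bp3 at 3.93 and 0.252, Pid1, an adaptor that dampens insulin signalling, at 1.37 and 4.88, and Gm364 at 2.24 and 6.73. In the cultures Pid1 was at 0.128 FPKM in the young-host and 1.82 in the old-host library.

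Gene groups kept their direction in tumors in some cases and not in others. Immediate early and AP-1 genes were lower in 17 of 19 members in the old-host tumor (median -0.54) as in the old-host culture, and mesenchymal genes in 16 of 19 (-0.29), beside the lower fibroblast sum given above. Notch genes were higher in 12 of 16 (0.28) and glioma stem cell factors in 17 of 22 (0.25). Mitosis genes, higher in the old-host culture in 24 of 24, were lower in the old-host tumor in 24 of 24, with a median of -0.38. Plk1 was at 32.7 FPKM in the young-host and 21.7 in the old-host tumor and Ccnb2 at 14.4 and 6.79. Cholesterol genes were higher in 5 of 17 there and glycolysis genes in 8 of 20. Genes of the integrated stress response were higher in 9 of 14 (0.20) and lysosome genes in 18 of 22 (0.25), both opposite in sign to the culture medians. IGF genes, lower in 11 of 11 in the old-host culture, were higher in 6 of 10 in the old-host tumor (0.17). The part of host cells in the tumor values was not tested. The difference between the culture pair and the tumor pair rests on 1 library per group and was not tested.

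**Figure D5:**
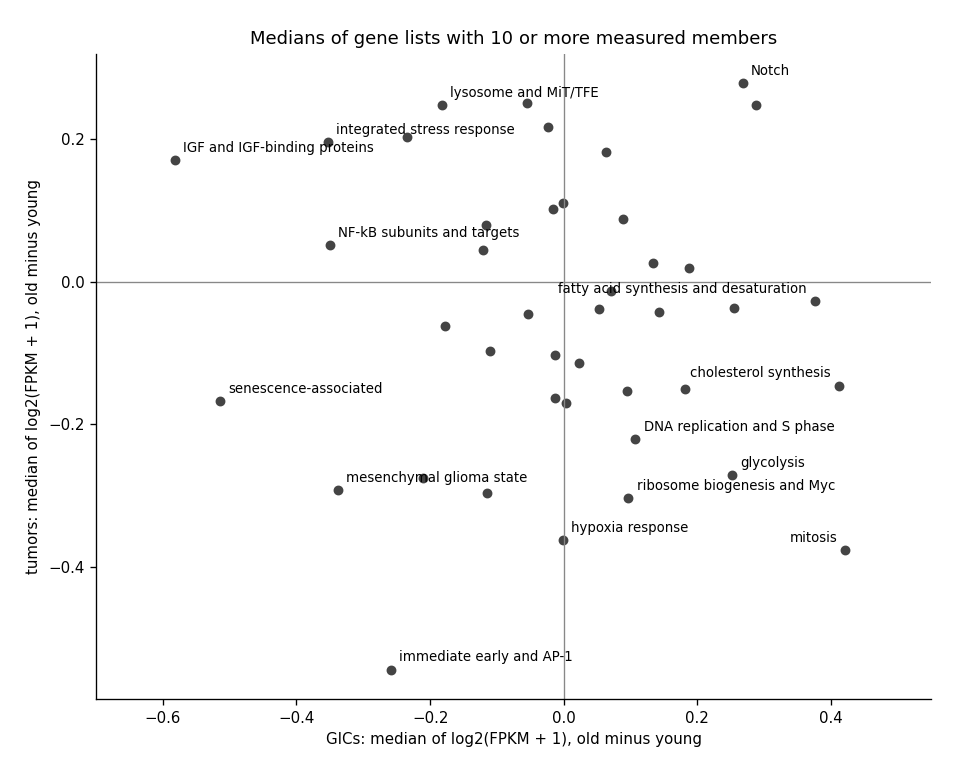
Median old minus young difference of each gene list with 10 or more measured members, as log2(FPKM + 1), in the GIC pair (horizontal axis) and in the tumor pair (vertical axis). Mitosis lies at 0.42 and -0.38, the integrated stress response at -0.35 and 0.20, and immediate early and AP-1 genes at -0.26 and -0.54.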

How the data were processed

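Total RNA was extracted with TRIzol, depleted of ribosomal RNA and made into stranded libraries for paired-end sequencing, per the labels' protocols. The authors deposited FPKM values per gene, 1 table for cultures and 1 for tumors. STAR 2.5.4b and the GRCm38 build are named in the submitters' processing notes, beside Cuffdiff, Cufflinks 2.2.1 and, for reads, Trim Galore 0.6.2 and bcl2fastq 1.8.4. No annotation, normalization mode or use of strand is given in the sources used here. Overlapping and antisense genes may therefore share values.

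Rows with a highest value of at least 1 FPKM in a table were kept, 1 was added and the log2 difference was taken. Of 46952 rows, 1065 name several genes and 43950 were matched by symbol to GENCODE M21, which gave gene types and GRCm38 coordinates. Depth was estimated from the steps of low FPKM values of genes with 1 transcript. Of the values used, 95.9% to 96.6% came out whole within 0.05 of a fragment, and the depth may be relative if the authors' scaling changed it. Ratio intervals for genes with 1 transcript are exact and cover counting error only. Named genes are the 20 highest and the 20 lowest protein-coding differences at 5 FPKM or more, up to 6 members per list by size of difference, and 17 fixed genes. Genes named outside this rule are said to be so, and some genes under it are not reported here. Up to 3 promoter windows per element were taken by size of difference, and those of 6 genes are printed. The genes and lists were chosen with earlier results of these data known. Other pseudocounts, filters and scalings, adding rows shared by several genes, removal of a GC trend and, after seeing the data, removal of chromosome medians were tried. The steps were tested on simulated data with Python 3.11.15, numpy 2.4.6, pandas 2.3.3 and scipy 1.17.1.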

Additional observations from a re-analysis of the deposited data

Results flagged for a closer look

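In 4 results the share of members higher passed a high cut in the culture pair and a low cut in the tumor pair. The cuts were 75% and 25% for lists of at least 10 members, and 65% and 35% for chromosomes. Other lists also changed side, without passing both cuts. Mitosis genes had a median difference of 0.42 in cultures, with 24 of 24 higher, and -0.38 in tumors, with 24 of 24 lower. Genes of ribosome biogenesis and Myc targets had a median of 0.10 in cultures, with 16 of 18 higher, and -0.30 in tumors, with 18 of 18 lower. In TPM the culture value was 11 of 18 higher (61.1%) with a median of 0.04. Odc1, the rate-limiting enzyme of polyamine synthesis, led them at 242 FPKM in the young-host and 404 in the old-host culture. Respiratory chain genes had a median of 0.10 in cultures, with 22 of 26 higher, and -0.15 in tumors, with 20 of 26 lower. On chromosome 15 the median was 0.11 in cultures, with 71.3% of genes higher, and -0.12 in tumors, with 34.3% higher. Each pair holds 1 library per group, and the difference between the pairs was not tested.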

How the results depend on the processing

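Counts of rows past 2-fold, 157 higher and 202 lower in the old-host culture, depended on how low values were treated. With a pseudocount of 0.1 they were 346 and 527, with 0.5 the lower count was 329, with a filter of 5 FPKM they were 78 and 90, after scaling to TPM 306 and 504, and over protein-coding rows 60 and 84. TPM scaling moved the share of higher rows among those past 2-fold from 43.7% to 37.8%. In tumors the 229 and 144 became 542 and 302 with a pseudocount of 0.1, 91 and 67 with 5 FPKM, and 486 and 234 in TPM. Genes 2-fold higher in the old-host culture were higher and lower in the old-host tumor in 118 and 44 cases with a pseudocount of 0.1. They were higher there in 66 cases with 0.5, 21 with 5 FPKM and 71 in TPM. Genes 2-fold lower in the culture were lower and higher in the tumor in 116 and 119 cases with 0.1, 71 and 63 with 0.5, 20 and 14 with 5 FPKM, and 92 and 103 in TPM. These alternatives admit other genes by their construction.

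Of 216 alternatives for 24 gene lists, 213 kept the share of members higher within the exact binomial interval of the reported share. That interval takes genes as trials and is wide for short lists, at 65.3% to 98.6% for the 18 genes of ribosome biogenesis and Myc. A share that stayed within it may still have moved by much, so these 213 do not show that the shares were stable. The integrated stress response went to 0 of 14 higher (0%) in TPM and, by an alternative chosen after seeing the data, with chromosome medians removed. Its only higher member had stood at 0.03. Ribosome biogenesis went to 61.1% in TPM. TPM divides by the FPKM sum, which was 501351 in the young-host and 522917 in the old-host library. The cause of these moves was not tested. With 5 FPKM the share of genes higher was 80.9% on chromosome 10, 55.4% on chromosome 7 and 85.6% on chromosome X. Of 2679 alternatives for 344 named genes, none changed direction at a 2-fold difference, 61 newly passed 2-fold and 5 no longer did, among them Egr1 (-0.97), Slitrk2 (0.96) and Sirt6 (0.84) with chromosome medians removed, and Igf2bp2 (-0.998) with a GC trend removed. No paired analysis was possible because each group has 1 library. Differences of genes near 1 FPKM are limited by depth, as 1 FPKM of a 2 kb transcript was about 17.9 fragments in the old-host library, with an interval of 0.592 to 1.58 FPKM.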

Other observations

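Some members with differences near or past 2-fold belong to none of the groups described above. Hoxa10, a homeobox gene of posterior identity, was at 6.46 FPKM in the young-host and 13.6 in the old-host culture. Rbp4, a carrier of retinol, was at 38.7 and 18.4 FPKM, and Crabp2, which carries retinoic acid within cells, at 6.51 and 2.36.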
